A study of Mus musculus with 12 samples.

Results

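Perforin, 5 granzymes, the granule membrane protein Nkg7 and Fas ligand were followed as the cytotoxic genes of cultured mouse helper T cells. They were taken by name, as the array probes whose recorded transcript belongs to Prf1, Gzma, Gzmb, Gzmc, Gzmk, Gzmm, Nkg7 or Fasl. These 8 genes had 10 of the 41174 distinct probes, with 2 probes each for Nkg7 and Fasl, and all 8 were among the 14745 genes tested. The probes of 7 genes stood well above background on all 12 arrays, and that of Gzmk did so on 11.

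Killer lymphocytes carry perforin and granzymes in secretory granules. On contact with a target cell the granules fuse with the plasma membrane, perforin opens pores, and granzymes enter and cleave proteins in the target. Fas ligand kills by a separate route, by engaging the death receptor Fas. The program is best known from CD8 T cells and NK cells, where the T-box factors T-bet (Tbx21) and Eomes, together with Runx3, drive it, but helper T cells can express much of it after activation. The miR-29 family is known to repress the messages of both T-box factors.

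The 4 groups were Dgcr8-deficient cells given miR-29b, Dgcr8-deficient cells given a control miRNA, wild-type cells given miR-29 inhibitors, and wild-type cells given control inhibitors. All came from C57BL/6 mice of 7 weeks, with cells of mice numbered 2, 3 and 4 in each genotype split over both treatments of that genotype, so each group held 3 arrays. Dgcr8 is the partner of Drosha that microRNA processing needs, and how its gene was disrupted is not given in the sources used here. Every culture was activated through CD3 and CD28 for 65 hours and grown with IL-2 for 48 hours, was electroporated on days 1 and 4, and its RNA was taken on day 5, which was 24 hours past the later electroporation.

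A level here is the log2 of a spot signal after subtracting the log2 of its array's 75th percentile; it compares samples for 1 gene, not genes with each other. The arrays had 27377 to 32218 probes well above background and 0 saturated spots, and their number limits the precision. In the main fit the p-values rest on the spread among mice within groups, and the paired arrays of a mouse are treated as independent. Where treatments are compared within mice, differences in level between mice are removed. Those p-values rest on how much the treatment difference varies from mouse to mouse. Outlier spots numbered 1458 for mouse 3 with miR-29b and 68 to 193 elsewhere, with 0 among spots of the 8 genes. Dgcr8 itself lay between -1.24 and -0.15 in Dgcr8-deficient cells and between -0.16 and 1.004 in wild-type cells, so the genotypes overlapped by 1 array of each; where its probe lies relative to the disrupted part is not known here. Cd4 and Cd3e were well above background on all 12 arrays. So were Cd8a and the B cell markers Cd79b and Ms4a1, so detection does not set cell types apart here. Each mouse had both of its arrays on 1 slide, scanned together, and in bulk RNA fewer expressing cells and less RNA per cell cannot be told apart.

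The added microRNA and the ones blocked by the inhibitors are shown because they define both treatments. The mature 3p sequences come from RefSeq (GRCm38.p6), with the seed, bases 2 to 8, in capitals; the labels name miR-29b without an arm.
mmu-miR-29a-3p: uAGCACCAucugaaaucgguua
mmu-miR-29b-3p: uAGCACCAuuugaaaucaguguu
mmu-miR-29c-3p: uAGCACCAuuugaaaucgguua
All 3 family members share the seed AGCACCA. The labels do not say which of them the inhibitors were directed against.

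**Figure D1:**
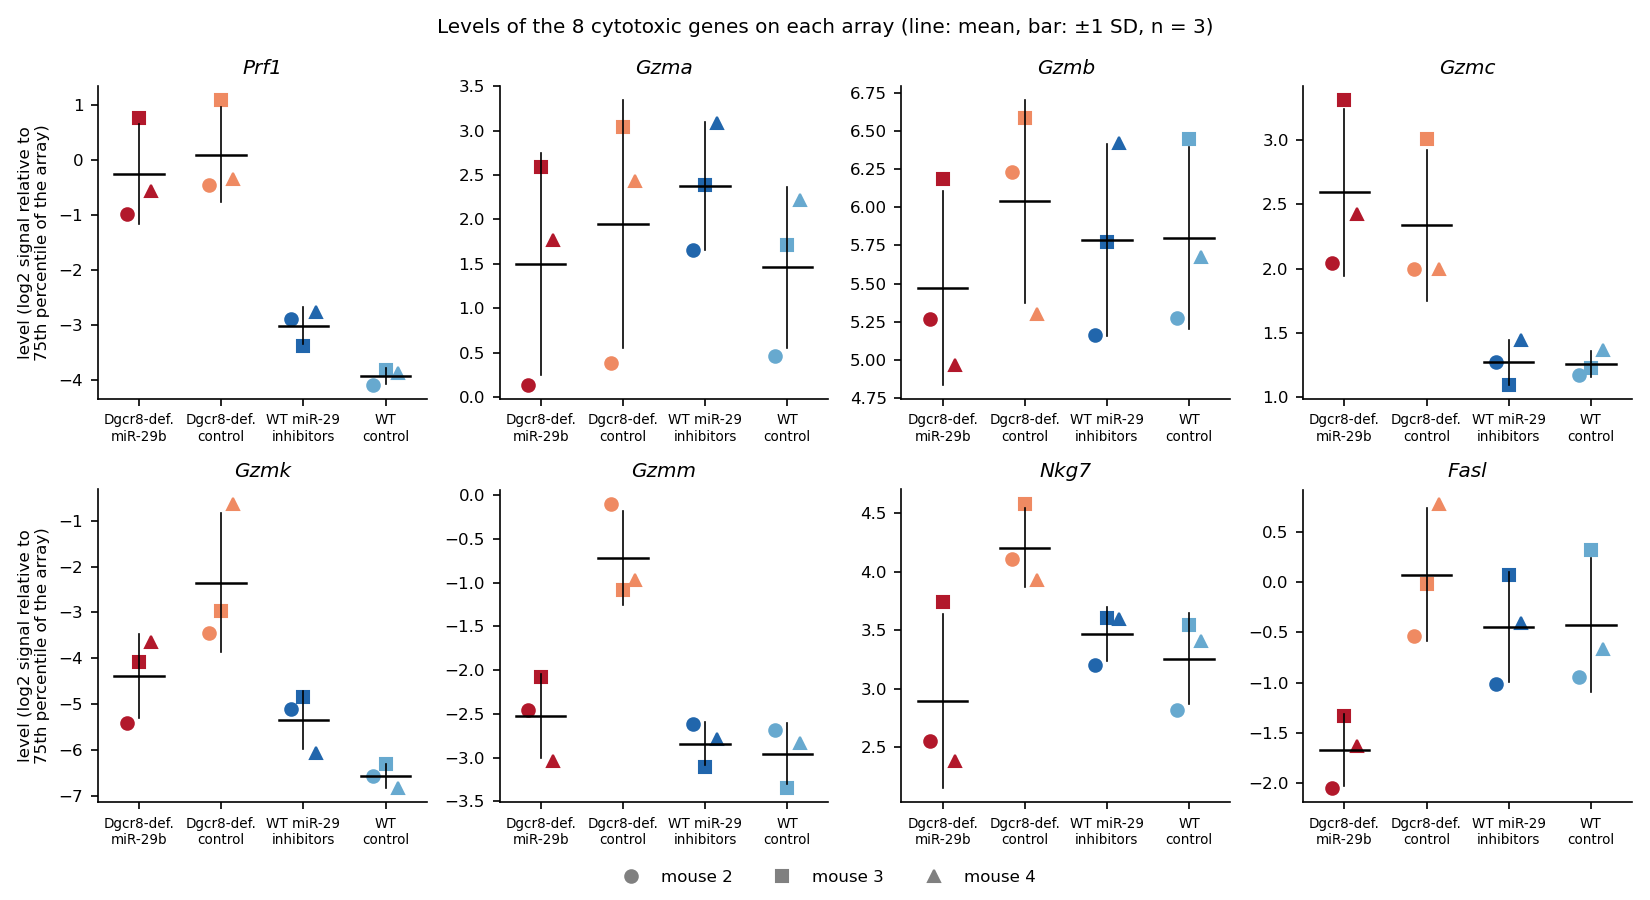
Levels of the 8 genes on each array, as log2 signal minus the log2 75th percentile of that array, for 3 mice per group (circle, square and triangle for mice 2, 3 and 4), with a line at the group mean and a bar of 1 SD to each side. Each panel has its own axis. Prf1 lies between -0.98 and 1.08 on the 6 Dgcr8-deficient arrays and between -4.08 and -2.76 on the 6 wild-type arrays, while Gzmm is high in Dgcr8-deficient control cells alone, at -1.08 to -0.10.

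With miR-29b added, Dgcr8-deficient cells had less Gzmm, a granzyme that cleaves after methionine and related residues: it was 3.51-fold lower than with the control miRNA (log2 change -1.81 ± 0.32 SE, limma adjusted p = 0.0214). It was 1 of 8 cytotoxic genes past the threshold of 0.05, where 2.2% of all genes tested passed, 1.19% as lower and 1.01% as higher. Gzmk, Nkg7 and Fasl were 4.09-, 2.48- and 3.35-fold lower on average and missed the threshold. When the comparison was made within mice, with the mouse as a block, these 3 passed along with Gzmm, giving 4 of 8 lower and 0 of 8 higher, against 9.39% and 13.1% of all genes. Prf1, Gzma, Gzmb and Gzmc passed in neither fit.

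Gzmm stood at -2.46, -2.08 and -3.04 in mice 2, 3 and 4 with miR-29b, against -0.10, -1.08 and -0.97 with the control miRNA. The groups did not overlap, and the drop was smallest in mouse 3 (-1.005) and largest in mouse 2 (-2.36). The call did not hold without the control array of mouse 2 (-1.501, adjusted p = 0.0764), the miR-29b array of mouse 2 (-1.84, 0.0686) or that of mouse 4 (-1.55, 0.0738), with normexp background correction (-1.43, 0.053), or in a fit of these 6 arrays alone (adjusted p = 0.237). With the mouse as a block the adjusted p was 0.00755.

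Fas ligand had 2 probes, of which the brighter, printed in 10 spots, stood for the gene. It read -2.05, -1.33 and -1.63 with miR-29b and -0.53, -0.02 and 0.78 with the control miRNA. All 3 miR-29b values were below all 3 control values, a log2 change of -1.74 ± 0.43 (adjusted p = 0.0698; 0.00645 with the mouse as a block). The other probe, in a fit of all 32308 kept probes, read -3.89, -3.10 and -3.83 with miR-29b and -2.49, -1.66 and -1.63 with the control miRNA, a log2 change of -1.67 ± 0.33 (adjusted p = 0.0472). In that fit the brighter probe had an adjusted p of 0.108. Of 11 other settings that kept all arrays, 7 put Fasl past the threshold, and 0 of 12 fits that left out an array did.

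Nkg7 encodes a granule membrane protein that helps granules fuse at the contact site. Its level was 2.55, 3.74 and 2.39 with miR-29b, against 4.11, 4.58 and 3.93 with the control miRNA. The groups did not overlap, and the differences within mice were -1.56, -0.84 and -1.54. The log2 change was -1.31 ± 0.36 (adjusted p = 0.0997, and 0.00613 with the mouse as a block). Leaving out the miR-29b array of mouse 3, the mouse with the smallest drop, put it past the threshold without a block (-1.74, adjusted p = 0.0176). The other 11 of 12 fits that left out an array did not, with adjusted p-values of 0.118 to 0.253. Of 11 other settings that kept all arrays, 4 put Nkg7 past the threshold and 7 did not. The other probe of Nkg7 read 1.77, 2.80 and 1.45 with miR-29b and 3.40, 3.62 and 3.03 with the control miRNA, a log2 change of -1.34 ± 0.34.

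Gzmk, a tryptase-like granzyme that shares its cleavage preference with granzyme A, differed widely between mice. It read -5.41, -4.09 and -3.65 with miR-29b, against -3.45, -2.97 and -0.63 with the control miRNA. Mouse 4 was highest in both groups, and its difference of -3.02 was the largest of the 3 mice. The mean change was -2.03 ± 0.69 (adjusted p = 0.191), and 0.0139 with the mouse as a block.

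The remaining 4 genes moved little beside their spread between mice. Perforin read -0.98, 0.76 and -0.56 with miR-29b, against -0.46, 1.08 and -0.34 with the control miRNA, a log2 change of -0.35 (95% interval -1.42 to 0.71, adjusted p = 0.851). For Gzmb, the most studied inducer of apoptosis among the granzymes, the values were 5.27, 6.19 and 4.97 with miR-29b and 6.23, 6.58 and 5.30 with the control miRNA, and the change was -0.56 (-1.61 to 0.48, adjusted p = 0.69). The tryptase Gzma read 0.14, 2.59 and 1.77 with miR-29b and 0.38, 3.04 and 2.43 with the control miRNA (-0.45, interval -2.21 to 1.31, adjusted p = 0.899). Gzmc, a granzyme of the mouse cluster that also holds Gzmb, was the exception in sign, at 2.04, 3.31 and 2.43 with miR-29b against 2.00, 3.01 and 2.00 with the control miRNA (0.26, interval -0.51 to 1.02, adjusted p = 0.848). For these 4 genes the groups overlapped. In the fit blocked by mouse the change was -0.45 ± 0.13 for Gzma (limma adjusted p = 0.0554) and 0.26 ± 0.10 for Gzmc (0.124). The blocked adjusted p was 0.17 for Prf1 and 0.183 for Gzmb.

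Compared within mice, 7 of the 8 genes were lower with miR-29b in all 3 mice, as were 21.6% of all genes with a value in every mouse. Gzmc was higher in all 3, as were 38.5% of all genes. The groups were separated without overlap, miR-29b below control, for Gzmk, Gzmm, Nkg7 and Fasl, 4 of 8, against 6.32% of all genes. None of the 8 separated the other way (0 of 8, against 9.14%). The median log2 change over the 8 genes was -0.94, beside 0.10 over all genes tested; quantile normalization put the median of all genes at -0.00353. Among all genes tested, 324 passed, 149 higher and 175 lower, and that split was 153 and 291 after quantile normalization and 79 and 147 with normexp. None of the 8 genes changed sign under quantile normalization, normexp or the authors' deposited values.

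**Figure D2:**
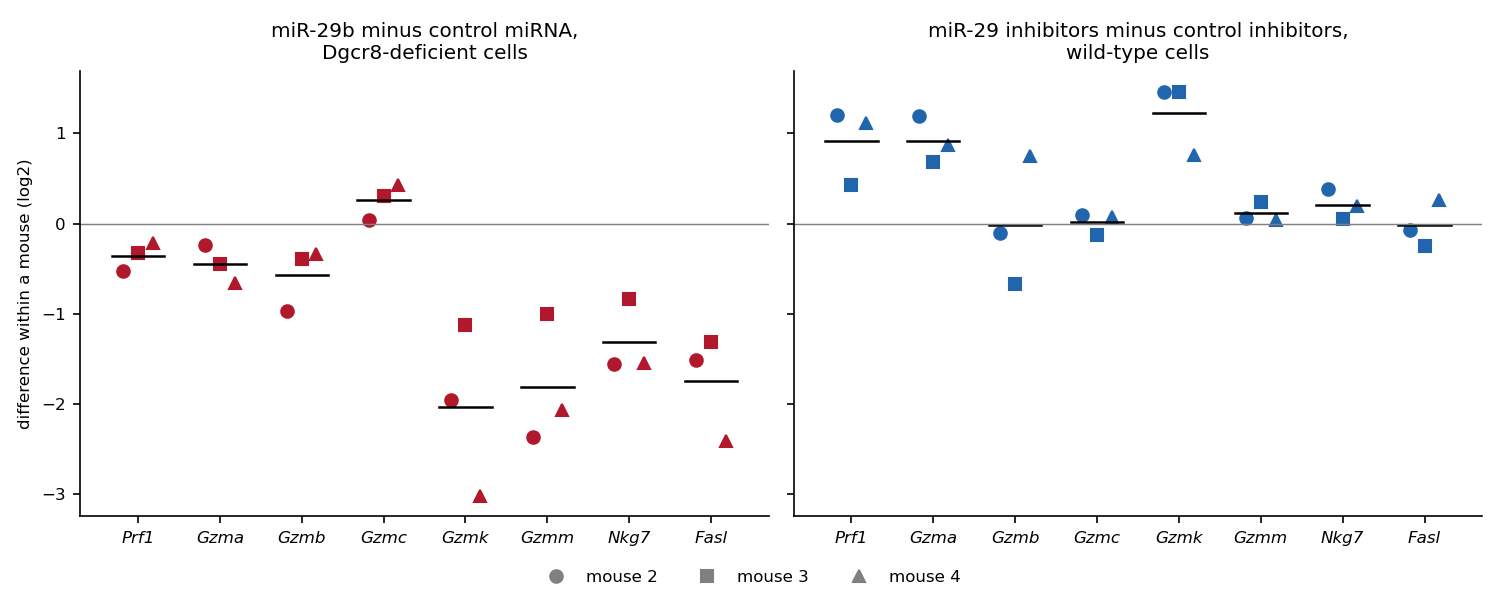
Differences within each mouse, in log2, for the 8 genes: miR-29b minus control miRNA in Dgcr8-deficient cells on the left and miR-29 inhibitors minus control inhibitors in wild-type cells on the right. Symbols mark mice 2, 3 and 4 and the line is their mean. Gzmk, Gzmm, Nkg7 and Fasl lie between -3.02 and -0.84 on the left, while Prf1, Gzma and Gzmk lie between 0.42 and 1.46 on the right.

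In wild-type cells, miR-29 inhibitors changed none of the 8 genes past the threshold (limma adjusted p = 1 for each). Before adjustment, 0 of 8 had a p under 0.05, and 3 of 8 did in the fit blocked by mouse. No other gene passed either: 0 of 14745, or 0%, with 61 genes at an unadjusted p under 0.05. Blocking by mouse made that 511, and the adjusted count was still 0. The shifts in Prf1, Gzma and Gzmk were nevertheless in the same direction in each of the 3 mice.

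Perforin was at -2.88, -3.38 and -2.76 with the inhibitors, against -4.08, -3.80 and -3.87 with control inhibitors. Each inhibitor value was above each control value, and the log2 difference was 0.91 ± 0.48 (unadjusted p = 0.0871; with the mouse as a block 0.00148, adjusted 0.916). With normexp the difference was 0.42. Gzmk also separated the groups, with -5.11, -4.86 and -6.08 with the inhibitors against -6.58, -6.32 and -6.84 with control inhibitors. The last of these, mouse 4, was not well above background, so the control level was measured on 2 of 3 arrays, and the difference of 1.23 ± 0.69 shrank to 0.09 with normexp. Prf1 and Gzmk were the 2 of 8 genes whose inhibitor values lay wholly above the controls, against 1.63% of all genes, and 0 of 8 lay wholly below, against 1.14%.

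Gzma read 1.65, 2.39 and 3.09 with the inhibitors and 0.46, 1.71 and 2.22 with control inhibitors, higher by 0.68 to 1.19 within mice. The mean difference was 0.92 ± 0.80 (unadjusted p = 0.275), and with the mouse as a block 0.92 ± 0.13 (unadjusted p = 0.000394, adjusted 0.6). The other genes stayed near their controls. Gzmm was at -2.62, -3.11 and -2.79 with the inhibitors against -2.68, -3.35 and -2.83 with control inhibitors, and Nkg7 at 3.20, 3.60 and 3.60 against 2.82, 3.55 and 3.40. The mean differences were 0.11 (95% interval -0.61 to 0.83) for Gzmm and 0.21 (-0.58 to 0.997) for Nkg7. Gzmm changed sign with normexp (-0.02).

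Gzmb, Gzmc and Fasl had no common direction among mice. Gzmb read 5.16, 5.78 and 6.42 with the inhibitors and 5.27, 6.45 and 5.67 with control inhibitors. Gzmc was at 1.27, 1.097 and 1.45 with the inhibitors and 1.17, 1.23 and 1.37 with control inhibitors, the narrowest range of the 8 genes in wild-type cells. Fasl read -1.01, 0.07 and -0.40 with the inhibitors and -0.94, 0.32 and -0.67 with control inhibitors. Altogether 5 of 8 genes (Prf1, Gzma, Gzmk, Gzmm and Nkg7) were higher with the inhibitors in all 3 mice, as were 14.6% of all genes, and 0 of 8 were lower in all 3, as were 8.88%. Those 5 were also lower with miR-29b in all 3 mice of the other genotype, a combination that 3.69% of all genes showed.

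The effect of miR-29b minus the effect of the inhibitors tests whether the opposite treatments differed. It was negative for 7 of the 8 genes. For Gzmk it was -3.26 ± 0.98 on the log2 scale (adjusted p = 0.314), but -2.20 in the authors' deposited values and -1.44 with normexp. No gene of the 8 passed (0 of 8), where 0.156% of all genes did. At an unadjusted limma p under 0.05 were 4 of 8, as were 1047 of all 14745 genes. With the mouse as a block 6 of 8 passed, all with the negative sign, as did 3.5% of all genes with that sign and 2.56% with the positive one. Their adjusted p-values were 0.0382 for Prf1, 0.0203 for Gzma, 0.0254 for Gzmk, 0.0377 for Gzmm, 0.0254 for Nkg7 and 0.0372 for Fasl. For Gzmm and Fasl this contrast came almost wholly from the miR-29b side, with inhibitor effects of 0.11 and -0.02 beside miR-29b effects of -1.81 and -1.74. For Prf1 and Gzma the inhibitor effect was the larger, at 0.91 and 0.92 beside -0.35 and -0.45. The treatments were given to cells of different genotype, so treatment and genotype cannot be told apart in this contrast.

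Dgcr8-deficient control cells had more perforin, Gzmk, Gzmm and Gzmc than wild-type control cells. Perforin was 16.1-fold higher (log2 difference 4.01 ± 0.48, adjusted p = 0.000279), Gzmk 18.7-fold (4.23 ± 0.69, 0.00169), Gzmm 4.71-fold (2.24 ± 0.32, 0.000853) and Gzmc 2.11-fold (1.08 ± 0.34, 0.0473). These were 4 of 8 genes called higher, where 9.23% of all genes were called higher and 21.9% were called in either direction. The same number, 4 of 8, was called higher with the mouse as a block, against 8.57% of all genes. Nkg7, Fasl, Gzma and Gzmb did not pass. The control oligonucleotides of the genotypes also differed in kind, a control miRNA against control inhibitors, so genotype and control type cannot be told apart.

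The lowest perforin value in Dgcr8-deficient control cells was -0.46, and the highest in wild-type control cells was -3.80. The difference stayed past the threshold in all 12 fits that left out an array and in all 11 other settings; its smallest value was 2.99, with normexp. Within the slides that held both genotypes, perforin was higher by 3.62 on one and by 3.46 on the other.

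Gzmk rested on low signals in wild-type cells, where the mouse 4 control was not well above background. Its difference was 1.82 with normexp (adjusted p = 0.0279), 2.45 in the authors' deposited values (0.00395), and 3.36 without the Dgcr8-deficient control array of mouse 4. It passed in each of those fits. Within slides it was higher by 3.12 and 5.69, the larger value including that same array. Gzmm held past the threshold in all 12 fits without an array and in all 11 other settings, at 1.68 with normexp, and was higher by 2.58 and 2.37 within slides.

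The Gzmc call depended on single arrays. Its Dgcr8-deficient control values of 2.00, 3.01 and 2.00 all exceeded the wild-type control values of 1.17, 1.23 and 1.37. It passed in only 2 of the 12 fits that left out an array; in the other 10 its adjusted p lay between 0.0529 and 0.152. It also missed the threshold with no filter on dim probes (0.0608) and in a fit of these 6 arrays alone (0.0617). Within slides Gzmc was higher by 0.83 and 0.77.

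Nkg7 was higher in every Dgcr8-deficient control array than in any wild-type control array, with a mean of 4.203 ± 0.34 against 3.26 ± 0.39 (SD, n = 3 each; adjusted p = 0.0858 by limma). With it, 5 of 8 genes separated the genotypes, against 14.8% of all genes. Nkg7 passed in 2 of 11 other settings, after quantile normalization (adjusted p = 0.046) and in the authors' deposited values (0.0438). It missed the threshold in the other 9, with 0.0903 for the mouse as a block, and in 11 of 12 fits that left out an array. Fasl was at 0.07 ± 0.66 in Dgcr8-deficient and -0.43 ± 0.67 in wild-type control cells, a difference of 0.50 (95% interval -0.44 to 1.45). Gzma and Gzmb had intervals of -1.28 to 2.25 and -0.80 to 1.28, and their within-slide differences had opposite signs on the 2 slides, -0.08 and 0.72 for Gzma and 0.96 and -1.15 for Gzmb. The median difference over the 8 genes was 1.01, beside -0.08 over all genes tested (-0.249 with normexp).

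Markers of other cells moved along with these genotype differences. Of 4 B cell markers, 3 were higher in Dgcr8-deficient than in wild-type control cells, led by Ms4a1 (5.86 ± 0.56, adjusted p = 7.7e-05) and Cd79b (3.83 ± 0.33, 4.4e-05), while Pax5 was level (0.00). Of all genes, 9.23% were called higher and 12.6% lower. Summed over the list, with levels taken as multiples of the 75th percentile, B cell markers gave 3.9 to 8.75 in Dgcr8-deficient control cells and 0.274 to 0.408 in wild-type control cells. NK cell markers summed to 0.412 to 0.848 in Dgcr8-deficient and 1.31 to 2.93 in wild-type control cells, with 2 of 9 higher (Klrk1, Klra7), and Klrd1 lower, at -2.55. With the mouse as a block Klra7 did not pass (adjusted p = 0.0553). Many NK markers were near background. Klrk1 and Klra7 were each well above it on 9 of 12 arrays, with wild-type control values down to -8.73 and -8.27. Klra8 and Klre1 were so on 5 arrays and Klra4 on 3, while Klrd1 was on all 12. The NK sum ran against most of its members, since 6 of 9 had a positive difference, with a median of 0.80. Klrd1 alone lay at -2.40 to -1.17 in Dgcr8-deficient and 0.24 to 1.46 in wild-type control cells. Cd8a, the 1 CD8 marker tested, overlapped, at 0.134 to 0.336 and 0.156 to 0.187 in the same groups. No myeloid marker was higher (0 of 4, Adgre1 lower), nor any mast cell or basophil marker (0 of 4). Of 4 innate-like T cell markers 1 was tested, Sox13, which was lower (-3.05). Of 7 helper T cell markers Cd28 was higher (1.25, adjusted p = 0.0467) and Cd40lg lower (-0.96, 0.000809). The part of these cells in the perforin and granzyme differences was not tested.

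In the miR-29b comparison, 0 of 30 markers over these 7 lists passed (limma; 3 at an unadjusted p under 0.05). In the fit blocked by mouse 4 of 30 passed, all higher (Zbtb7b, Klre1, Adgre1 and Ms4a2), where 13.1% of all genes were higher. Of these, Klre1 was well above background on only 5 of 12 arrays and Ms4a2 on 4, and Zbtb7b and Adgre1 on all 12. NK cell markers summed to 0.263 to 0.760 with miR-29b and 0.412 to 0.848 with the control miRNA. B cell markers summed to 4.78 to 9.82 with miR-29b and 3.9 to 8.75 with the control miRNA. Both sums overlapped, and their part in the lower Gzmm was not tested.

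**Figure D3:**
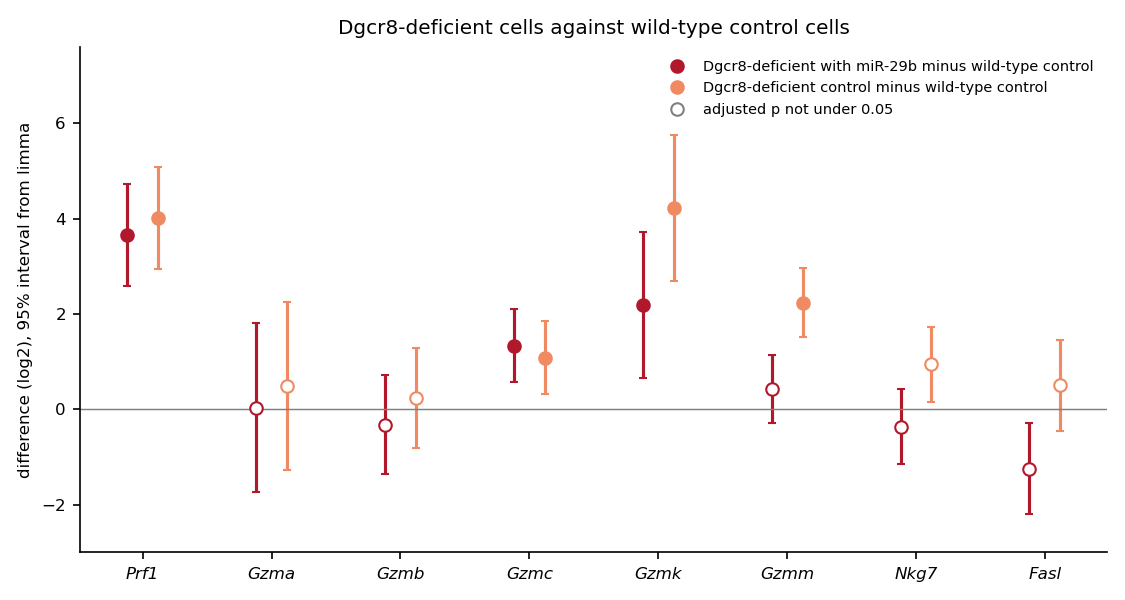
Log2 differences of the 8 genes from wild-type control cells, for Dgcr8-deficient cells with miR-29b (left point of each gene) and Dgcr8-deficient control cells (right point), with 95% intervals from limma (3 arrays per group). Filled points have an adjusted p under 0.05, as Prf1 has in both, at 3.65 and 4.01, and Gzmm only in control cells, at 2.24.

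Dgcr8-deficient cells given miR-29b, set against the same wild-type control arrays, still had more perforin, 12.6-fold (3.65 ± 0.48, adjusted p = 0.000451), and more Gzmc, 2.53-fold (1.34 ± 0.34, 0.017). Gzmk was 4.57-fold higher (2.19 ± 0.69, 0.0418). With these, 3 of 8 genes were called, all higher, against 11.2% of all genes called higher and 24.4% in either direction. With the mouse as a block 2 of 8 were called higher, against 10.1% of all genes, and Gzmk was not among them (0.0541); with normexp its difference was 0.46, and it was lost in 7 of the 12 fits that left out an array. Gzmc was lost without the wild-type control array of mouse 2 (adjusted p = 0.0553).

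Fasl had the opposite sign and did not pass. With miR-29b its values of -2.05 to -1.33 lay below all wild-type control values of -0.94 to 0.32, a difference of -1.24 ± 0.43 (adjusted p = 0.0588). It was the 1 of 8 genes lower without overlap, where 19.3% of all genes were, and 3 of 8 were higher without overlap, against 16.7%. In the fit of all kept probes, the other Fasl probe differed by -1.26 ± 0.33 (adjusted p = 0.0221) and the brighter one had an adjusted p of 0.0743. Of the 11 other settings, 7 put Fasl past the threshold, and so did 1 of 12 fits without an array. Gzmm, at -2.53 ± 0.48 with miR-29b and -2.95 ± 0.35 in wild-type control cells (SD, n = 3 each), did not pass against wild type (0.43, 95% interval -0.29 to 1.15). Since the miR-29b and genotype comparisons share the Dgcr8-deficient control arrays, and both genotype comparisons share the wild-type control arrays, their values are set side by side and not tested against each other.

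Ordered by group mean, the 8 genes fell into different patterns. Prf1 ran from Dgcr8-deficient control (0.09) and miR-29b (-0.26) down to wild-type inhibitor (-3.01) and control cells (-3.92), and of the neighbouring steps only that between the genotypes passed (2.74, adjusted p = 0.00228). Gzmc put miR-29b first (2.59), then Dgcr8-deficient control (2.34), inhibitor (1.27) and wild-type control cells (1.26), again with the step between genotypes past the threshold (1.06, 0.0495). For Gzmm the passing step was the top one: Dgcr8-deficient control cells (-0.72) stood above miR-29b (-2.53), inhibitor (-2.84) and wild-type control cells (-2.95), and the last 3 did not differ beyond their spread. Gzmk had the same order, from -2.35 through -4.38 and -5.35 to -6.58, with no neighbouring step past the threshold.

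In the other 4 genes no step between neighbouring groups passed the threshold. Fasl values with miR-29b lay wholly below those with inhibitors, and Nkg7 values in Dgcr8-deficient control cells wholly above them. How many of all genes separated at these steps was not counted. Against wild-type control cells, 19.3% of all genes lay wholly lower with miR-29b, and 14.8% wholly higher in Dgcr8-deficient control cells. Nkg7 averaged 4.203 in Dgcr8-deficient control cells, 3.47 with inhibitors, 3.26 in wild-type control cells and 2.89 with miR-29b. Fasl followed with 0.07 in Dgcr8-deficient control, -0.43 in wild-type control, -0.45 in inhibitor and -1.67 in miR-29b cells. Gzmb had the same order as Fasl over a narrower range, from 6.04 to 5.47. Gzma ran from 2.38 with inhibitors through 1.95 in Dgcr8-deficient control and 1.5003 in miR-29b cells to 1.46 in wild-type control cells, with SDs of 0.72 to 1.39 within groups.

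Across the 12 arrays, which include paired arrays of 6 mice and 4 groups with different means, the genes did not vary as 1 block. Perforin correlated most closely with Gzmc (Pearson r = 0.94), then with Gzmk (0.77) and Gzmm (0.67), and hardly with Gzma (0.17), Gzmb (0.16) or Fasl (-0.13). Gzmb was closest to Nkg7 (0.75), and Fasl to Nkg7 (0.70). Neighbouring genes were not closely alike: Gzma and Gzmk are adjacent coding genes on chromosome 13 and correlated at 0.22, and Gzmb and Gzmc are adjacent on chromosome 14 and also correlated at 0.22. Prf1 and Gzmm lie on chromosome 10 with 186 coding genes between them.

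Among 12431 genes well above background on all arrays, those whose levels followed perforin most closely over the 12 arrays included Mzb1 (r = 0.986), Sulf2 (0.983), Rab40c (0.977) and Cercam (0.975). The 5 closest to Gzmb were Chac1 (0.904), Adgrg3 (0.850), Lrrc10 (0.842), Slc10a3 (0.836) and Ifitm6 (0.815). Those closest to Fasl were Def6 (0.963), Hopx (0.943), Sppl2b (0.942), Tacc1 (0.931) and 2610524H06Rik (0.913). These are descriptions over arrays that share mice and genotypes.

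Other genes of the pathway were taken from lists. Of the further granzymes of the mouse cluster, Gzmd, Gzme, Gzmf, Gzmg and Gzmn, 4 of 5 were tested. In Dgcr8-deficient against wild-type control cells 1 was higher, Gzmd (3.00 ± 0.95, adjusted p = 0.0455), and with the mouse as a block Gzme joined it (2.76, 0.0479). Of all genes, 9.23% were higher, and 8.57% with the block. Gzmd was well above background on 10 of 12 arrays and Gzme on 9. With miR-29b 0 of 4 changed (1 at an unadjusted p under 0.05); Gzmf was 0.91 ± 0.24 higher (adjusted p = 0.0855, and 0.00975 with the mouse as a block). The genes of this cluster, Gzmc included, are close in sequence, and cross-hybridisation between their probes was not tested.

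Of 9 genes for granule content and granzyme processing, 0 passed with miR-29b (1 at an unadjusted p under 0.05). The nearest were Lamp1, a granule membrane protein (0.65 ± 0.18, adjusted p = 0.107, 0.00693 with the mouse as a block), and Ctsc, the protease that activates pro-granzymes (-0.56 ± 0.28, 0.418, blocked 0.0139). Between control cells of the genotypes 1 of 9 passed, Ctsh, a lysosomal protease that was 2.30 ± 0.59 higher in Dgcr8-deficient cells (0.0183). Of all genes, 9.23% were higher and 12.6% lower. Srgn, the proteoglycan that packs granzymes, was 0.75 ± 0.27 higher (0.08).

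Granule exocytosis was represented by 10 tested genes of 12. None passed with miR-29b (0 of 10, with 4 at an unadjusted p under 0.05, as had 2117 of all 14745 genes) or between genotypes (0 of 10, with 3). In the fit blocked by mouse, 4 of 10 were higher with miR-29b, among them Sytl1 (1.31 ± 0.36, blocked adjusted p = 0.00383), Rab27a (0.55, 0.0117) and Snap23 (0.53, 0.0226), and 1 was lower, Vamp7 (-0.57, 0.0169), against 13.1% and 9.39% of all genes. Rab27a and Sytl1 act in docking granules at the membrane, and Snap23 and Vamp7 belong to the fusion machinery.

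Both granzyme inhibitors tested, of 4 listed, passed as lower with miR-29b only with the mouse as a block: Serpinb6b at -0.85 ± 0.23 (adjusted p = 0.101, blocked 0.0141) and Serpinb9, which protects cells from their own granzyme B, at -0.76 ± 0.22 (0.128, blocked 0.0204). In that fit 9.39% of all genes were lower with miR-29b. Between the genotypes these inhibitors went opposite ways, Serpinb9 higher (1.03 ± 0.22, 0.00791) and Serpinb6b lower (-0.97 ± 0.23, 0.0126) in Dgcr8-deficient control cells. There 9.23% of all genes were higher and 12.6% lower.

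On the death receptor route, 1 of 8 genes fell with miR-29b and 3 of 8 with the mouse as a block, and none rose in either fit (0 of 8). Over all genes 1.19% were lower and 1.01% higher, and with the block 9.39% lower and 13.1% higher. The gene that passed in both was Tnfsf10 (TRAIL), another death ligand, which changed by -1.17 ± 0.24 (adjusted p = 0.0378). It lay at -1.37 to -0.73 with miR-29b and at -0.15 to 0.41 with the control miRNA, without overlap. Between control cells of the genotypes, 1 of 8 was higher in Dgcr8-deficient cells, Tnfsf10 (1.80 ± 0.24, 0.000542). Lower were 2 of 8, Bid (-0.97, 0.0124) and Fadd (-0.76, 0.0408), which relay the receptor's signal. Of all genes, 9.23% were higher and 12.6% lower in that comparison. Fas itself, named for its role after its values had been seen, passed in neither comparison, at 0.20 (adjusted p = 0.782) with miR-29b and 0.10 (0.811) between the genotypes.

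Of 17 regulators of the cytotoxic program, 2 fell with miR-29b: Eomes (-1.12 ± 0.22, adjusted p = 0.0279), and Il12rb2, a chain of the IL-12 receptor (-1.32 ± 0.26, 0.0321). Of all genes, 1.19% were lower and 1.01% higher. Eomes read -1.05 to -0.88 with miR-29b and -0.13 to 0.47 with the control miRNA, without overlap. With the mouse as a block 4 of 17 were lower and 4 higher, against 9.39% and 13.1% of all genes. Tbx21, singled out here for its known role after its values had been seen, was among the lower ones (-0.98 ± 0.60, adjusted p = 0.531, blocked 0.0126). Tcf7 (0.79 ± 0.23, 0.116, blocked 0.0151) and Stat5a (0.57 ± 0.15, 0.095, blocked 0.014) were among the higher.

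Between control cells of the genotypes 7 of 17 regulators were higher in Dgcr8-deficient cells and none was lower (0 of 17), against 9.23% and 12.6% of all genes. At an unadjusted limma p under 0.05, 8 of 17 were higher and 3 lower, and 4820 of all 14745 genes changed in either direction. With the mouse as a block 6 were higher, Notch1 being lost (adjusted p = 0.062). Those with the smallest p were Eomes (4.61 ± 0.22, adjusted p = 2e-06), Zeb2 (2.71 ± 0.27, 0.0001), Il12rb2 (2.24 ± 0.26, 0.000251) and Runx3 (1.16 ± 0.24, 0.0056). The median over the 17 was 0.68, beside -0.08 over all genes. With miR-29b, Eomes still stood 3.49 above wild-type control cells (9e-06). Inhibitors moved none of the 17 past the threshold (0 of 17, adjusted p = 1 for each); the difference for Eomes was 0.59 ± 0.22 (unadjusted p = 0.02) and that for Zeb2 0.84 ± 0.27 (0.0109).

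**Figure D4:**
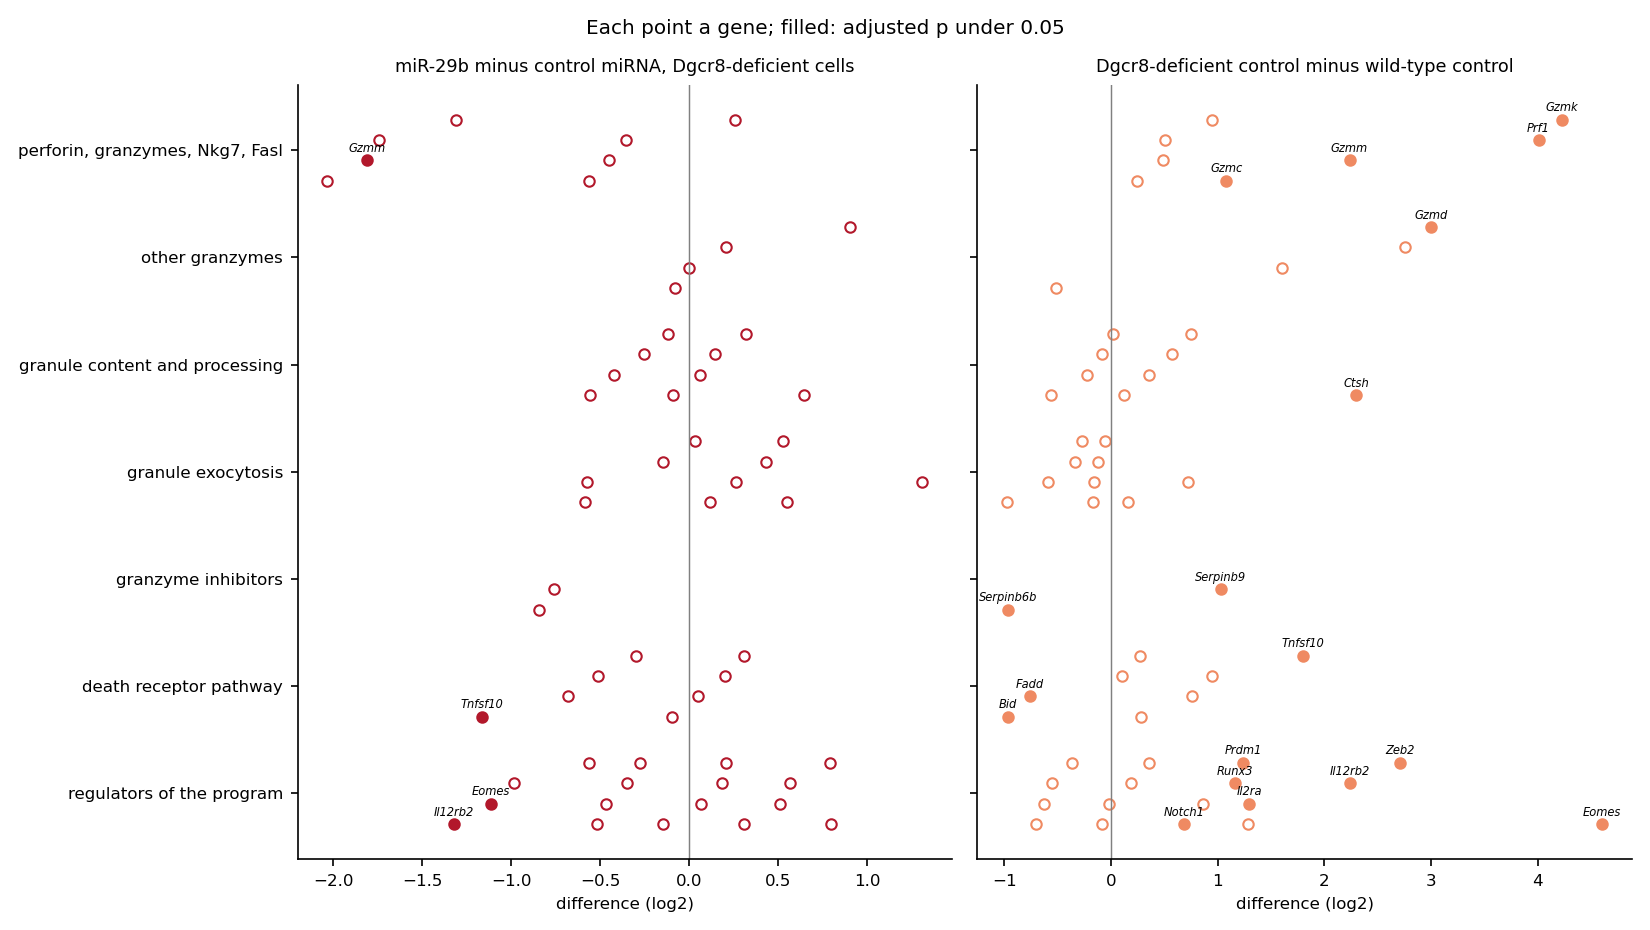
Log2 differences of the 8 cytotoxic genes and of 6 related lists, each point a gene: miR-29b minus control miRNA in Dgcr8-deficient cells on the left and Dgcr8-deficient minus wild-type control cells on the right, with 3 arrays per group. Filled, named points have an adjusted p under 0.05. Vertical offsets within a list only separate the points. On the left Gzmm, Tnfsf10, Eomes and Il12rb2 are filled, at -1.81 to -1.12, and on the right Eomes (4.61), Gzmk (4.23) and Prf1 (4.01) lie farthest out.

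The promoters of perforin and of the 4 genes that separated the miR-29b and control groups are shown, because the comparisons turn on these genes. Each is the 250 bases before a RefSeq start site (GRCm38.p6), 5′ to 3′ on the strand of the gene, with matches to GTGTGA (T-box) and TGTGGT (Runx), on either strand, in capitals.
Prf1, chr10:61297586-61297835, plus strand: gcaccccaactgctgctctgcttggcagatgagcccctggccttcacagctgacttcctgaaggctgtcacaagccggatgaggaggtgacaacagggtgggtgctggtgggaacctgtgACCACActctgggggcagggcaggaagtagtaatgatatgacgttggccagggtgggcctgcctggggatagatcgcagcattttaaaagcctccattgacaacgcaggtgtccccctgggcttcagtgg
Gzmk, chr13:113180966-113181215, minus strand: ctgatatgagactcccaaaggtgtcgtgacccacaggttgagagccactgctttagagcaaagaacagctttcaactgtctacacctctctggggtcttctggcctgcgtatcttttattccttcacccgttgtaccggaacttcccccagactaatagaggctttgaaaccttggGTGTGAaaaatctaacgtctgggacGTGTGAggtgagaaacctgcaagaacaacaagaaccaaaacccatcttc
Gzmm, upstream start, chr10:79688770-79689019, plus strand: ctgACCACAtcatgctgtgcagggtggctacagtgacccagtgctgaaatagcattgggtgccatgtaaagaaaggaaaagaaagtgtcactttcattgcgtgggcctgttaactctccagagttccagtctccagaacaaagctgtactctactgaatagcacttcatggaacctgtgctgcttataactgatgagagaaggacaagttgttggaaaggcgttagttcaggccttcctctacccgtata
Gzmm, downstream start, chr10:79693576-79693825, plus strand: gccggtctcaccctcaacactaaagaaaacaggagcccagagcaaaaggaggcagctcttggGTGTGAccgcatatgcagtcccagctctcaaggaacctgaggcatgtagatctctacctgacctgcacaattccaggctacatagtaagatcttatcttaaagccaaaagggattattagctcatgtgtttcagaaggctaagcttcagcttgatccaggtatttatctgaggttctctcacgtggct
Nkg7, chr7:43436888-43437137, plus strand: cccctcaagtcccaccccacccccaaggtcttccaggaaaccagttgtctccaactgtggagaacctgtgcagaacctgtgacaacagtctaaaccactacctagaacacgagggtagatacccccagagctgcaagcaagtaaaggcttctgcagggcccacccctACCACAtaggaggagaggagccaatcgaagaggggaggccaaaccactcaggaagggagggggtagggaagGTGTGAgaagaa
Fasl, chr1:161788496-161788745, minus strand: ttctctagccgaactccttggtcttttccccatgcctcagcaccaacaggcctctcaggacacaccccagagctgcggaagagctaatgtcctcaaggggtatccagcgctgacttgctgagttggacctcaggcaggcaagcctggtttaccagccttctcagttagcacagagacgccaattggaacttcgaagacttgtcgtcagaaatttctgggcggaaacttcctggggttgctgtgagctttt
Gzmk held 2 T-box matches, 74 and 49 bases before its start, and Nkg7 held 1 at 12 bases and a Runx match at 83 bases. Prf1 held a Runx match 130 bases before its start. The Gzmm starts differed, the upstream one with a Runx match at 247 bases and the downstream one with a T-box match at 188 bases. Fasl had no match to either motif in this window.

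Over the full tabled windows, which run 50 bases past the start, the 8 genes had 9 promoters. A T-box match was found in 4 of 9, against 14.5% of all 32851 mouse promoters tabled, and a Runx match in 6 of 9, against 16.8%. TTCNNNGAA (STAT) matched 3 of 9, against 8.3%, and TGACGT (the core of the cAMP response element) 3 of 9, against 7.51%. Such short matches describe sequence and do not show binding.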

How the data were processed

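Expression was measured on 12 one-colour Agilent arrays, 3 per group. Per the file headers, Feature Extraction 10.5.1.1 produced the deposited intensity of each spot, background-subtracted and not scaled between arrays. The authors' deposited log2 table, used as an alternative, was made with limma per the submitters' processing notes; its column medians were 6.95 to 6.96, each column correlated best with its own array (rho 0.985 to 0.995), and its exact background correction is unknown. No deposited column went unused for lack of a sample (0).

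Here log2 intensities were centred on each array's 75th percentile. Control and outlier spots were dropped, spots of a probe averaged, probes kept if well above background on at least 3 of 12 arrays, and the brightest kept probe stood for its gene. One limma 3.58.1 model (R 4.3.3) with 4 group means was fitted to 14745 genes, with Benjamini-Hochberg adjustment and a threshold of 0.05; every adjusted p in the text is from limma. Mouse numbers pair arrays within a genotype, since the design states that cells of each mouse received both treatments; same-mouse residuals correlated at 0.43 to 0.753. Blocking by mouse was fixed for treatments and random (correlation 0.768) between genotypes. Alternatives were normexp (median signals, offset 50), quantile normalization, the deposited log2 values, other probe filters, blocks and leaving out each array.

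All 8 genes are named; of each other list, up to 4 genes with the smallest p for miR-29b and for genotype, plus exceptions stated in the text. The genes and lists were chosen with earlier results of these data known. From the death receptor list, the B cell markers and the genes most like perforin, 1 gene each is not reported here.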

Additional observations from a re-analysis of the deposited data

Results flagged for a closer look

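For 5 of the 8 genes every mouse moved one way with miR-29b in Dgcr8-deficient cells and every mouse the opposite way with miR-29 inhibitors in wild-type cells. In each case miR-29b was the lower direction and the inhibitors the higher. Some inhibitor shifts within mice were small, at 0.04 to 0.24 for Gzmm and 0.05 to 0.38 for Nkg7. With normexp the mean inhibitor effect was -0.024 for Gzmm and 0.0875 for Gzmk, so the opposite direction did not hold for Gzmm there. Of 14187 genes with a value in every mouse, 3.69% showed that pattern. The effect of miR-29b minus the effect of the inhibitors, on the log2 scale, was -1.2644 for Prf1 (limma adjusted p = 0.831), -1.3665 for Gzma (1), -3.2603 for Gzmk (0.314), -1.9242 for Gzmm (0.172) and -1.5204 for Nkg7 (0.41). None of these differences passed the threshold in the fit without a block (0 of 5). With the mouse as a block all 5 passed (limma adjusted p 0.0203 to 0.0382), where 3.5% of all genes passed with a negative sign. The genes are given here because of this pattern within mice, so their within-mouse differences and blocked p-values are a description.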

How the results depend on the processing

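With 3 arrays per group, leaving out 1 array decides several calls, and low signals near background (Gzmk, and Prf1 in wild-type cells) limit their folds. For miR-29b, 1 of 8 genes was called; the count was 0 with normexp, 2 after quantile normalization, 3 in the deposited values, 2 with probes well above background on all arrays (which drops Gzmk), 2 with the median of a gene's probes and 0 from the arrays of the comparison alone. It was 4 with the mouse as a block, 4 with slide and 4 with scan day, and 0 to 2 without single arrays. For the difference of both effects the count of 0 became 6 with the mouse block, 4 with slide and 1 with scan day; a fit of its arrays alone is the fit of all arrays and was not run. Dgcr8-deficient cells with miR-29b against wild-type control cells gave 1 to 4 of 8 without single arrays, with 1 without the wild-type control of mouse 2. The mouse block changed no other count of called members by over 1.5 times.

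Signs turned in small effects: with inhibitors, Gzmb was 0.0194 and Gzmm -0.024 with normexp, and Gzmc -0.0187 in the deposited values; Gzma with miR-29b against wild type was -0.14 with slide as a block. Without single arrays, the miR-29b effect ranged from -0.86 to 0.14 for Prf1, -1.23 to 0.23 for Gzma and -0.10 to 0.60 for Gzmc. The inhibitor effect ranged from -0.33 to 0.32 for Gzmb, -0.0721 to 0.103 for Gzmc, -0.0831 to 0.25 for Gzmm, -0.01 to 0.36 for Nkg7 and -0.28 to 0.36 for Fasl. Between control cells, Gzma ranged from -0.0561 to 1.27 and Gzmb from -0.0331 to 0.61. For miR-29b against wild type, Gzma ranged from -0.51 to 0.72 and Gzmb from -0.68 to 3e-04. The difference of both effects for Gzmc ranged from -0.12 to 0.58.

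Over all genes, the miR-29b count of 324 was 568 in the deposited values, 0 from these arrays alone, 3310, 2682 and 1929 with mouse, slide and scan day blocks, and 84 to 286 without single arrays. Genotype counts of 3226 and 3603 reached 6310 and 6524 with slide and 5847 and 6256 with scan day, and the second was 2248 from its arrays alone. For the difference of both effects, 23 became 42 after quantile normalization, 91 in the deposited values, 12 with no filter, 55 with the strict filter, 5 with the median of probes, 893, 583 and 343 with the blocks, and 3 to 46 without single arrays. The causes were not tested.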
